A study of Arabidopsis thaliana with 9 samples.

Results

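The response shared by cesium and low potassium was described in roots of Arabidopsis thaliana by setting the 6 libraries of treated roots, as one group, against the 3 libraries of control roots. A gene was kept as a member where its mean over the 9 libraries reached 1 FPKM (fragments per kilobase, scaled to mapped fragments) and its 6 treated values all lay above, or all lay below, its 3 control values. Such genes are called separated here. Of 37547 genes in the files 19536 reached the mean, and 4212 of these were separated (21.6%), 1953 higher (10.0%) and 2259 lower (11.6%) in treated roots.

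All plants were wild-type Col-0, grown on agarose medium that held the same nitrate, phosphate and sulfate salts and sucrose. Cesium roots (3 libraries) were given 0.5 mM KCl with CsCl, which the labels state as 0.3 but in mL. Low potassium roots (3 libraries) were given 0.025 mM KCl, and control roots (3 libraries) 0.5 mM KCl. The age of the plants and the length of the treatments are not given in the sources used here.

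Roots take up potassium through channels and transporters such as AKT1 and HAK5, which a calcium-regulated kinase, CIPK23, switches on when supply is low. Cesium ions are chemically close to potassium, pass through some of the same proteins and disturb potassium use in plants. The supply of one nutrient also changes the uptake systems of others, above all those of nitrate and phosphate, as well as root hairs and the endodermis, the cell layer whose Casparian strip and suberin coat control what reaches the vascular tissue.

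Library totals and composition set the frame for these comparisons. How many reads each library had is unknown. Depth relative to control replicate 1 was estimated from ratios at low FPKM. In the other libraries only 13.9% to 18.4% of these ratios lay at the value taken. The estimate therefore cannot show whether the libraries were equally deep, and no depth is given. FPKM summed to 714170 to 844153 per library. The labels name biological replicates and do not say whether each was a culture of its own, so the p-values measure the spread between these libraries, which may be technical. Low potassium libraries stood apart on the first principal component (39.3% of the variance). The next (31.0%) set cesium libraries against control libraries, with low potassium libraries between them, and the one after (12.2%) set cesium replicate 3 apart. In bulk RNA, fewer cells of a type and less RNA per cell cannot be told apart. The markers fixed for root hairs, Casparian strip, suberin, xylem, phloem and dividing cells were all present above 0 in at least some libraries, as were photosynthesis genes.

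The shared change was mostly modest in size and ran in both directions. Among separated genes the median log2 change against control was 0.42 in cesium roots and 0.48 in low potassium roots for the higher genes, and -0.51 and -0.53 for the lower genes, against a median of 0.02 for the mean of both treatments over all tested genes. Changes of at least 1 on the log2 scale in both treatments were reached by 157 of the higher and 223 of the lower genes. All changes are on the log2(FPKM + 1) scale, which understates those of low genes, and are given as treated minus control, the mean of both treatments, ± SE from limma. In that test, run over all 19536 genes, 2795 genes rose (14.3%) and 2887 fell (14.8%) at an adjusted p under 0.05. Of the separated genes, 1659 of the higher and 2028 of the lower passed it, 525 did not, and 1995 genes passed without being separated. The test and the separation use the same values, so that one gives no independent support to the other.

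Many separated genes changed by different amounts in the 2 treatments. The test of cesium against low potassium takes its log2 difference from the treated libraries alone. Its error estimate also uses the control libraries, since all groups were fitted together. It called 6677 of all tested genes (34.2%), and among separated genes it called 494 of the higher (25.3%) and 463 of the lower (20.5%). Of the 494 higher genes, 131 had the larger value in cesium roots and 363 in low potassium roots. Of the 463 lower genes, 252 had the larger value in cesium roots and 211 in low potassium roots. At the edge of the filter, AT2G42150 had a mean of 1.00 FPKM and was kept as a gene lower in treated roots, while RLP42, a receptor-like protein gene higher in treated roots, had 0.9999 FPKM and was not. In the libraries themselves, the treated value nearest to control was that of cesium replicate 3 in 28.0% of the higher genes and that of low potassium replicate 3 in 7.27% of them.

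**Figure D1:**
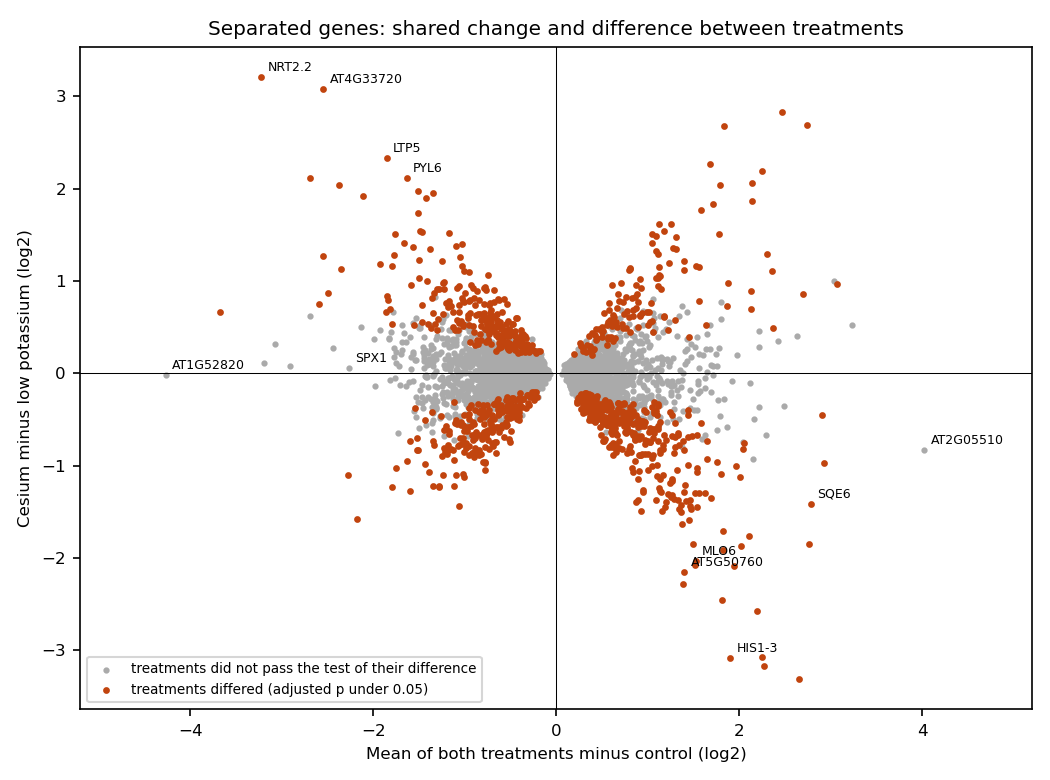
Each point is 1 of the 4212 separated genes, placed by its mean log2 change in both treatments against control (horizontal axis) and by the log2 difference of cesium minus low potassium (vertical axis), with red points for the 957 genes that passed the test of that difference. SPX1 and AT1G52820 lie near 0 on the vertical axis, while HIS1-3 at -3.09 and NRT2.2 at 3.21 lie far from it.

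Genes of the phosphate starvation response, which rise when phosphate is short, were lower in both treatments. Of 17 tested genes of this list 13 fell and none rose, 12 were separated, all lower, and the median log2 change was -0.60, against 0.02 over all tested genes. The medium held the same phosphate in all 3 groups. The gene that changed by the most was IPS1, a noncoding RNA that holds back a microRNA of phosphate signalling. IPS1 had 0.121, 0.730 and 0.123 FPKM in cesium roots and 0, 0 and 0.118 FPKM in low potassium roots, against 7.91, 9.41 and 9.13 FPKM in control roots, so that all 6 treated values lay under 1 FPKM and 2 were listed at 0 (adjusted p = 5.14e-06). SPX1, a nuclear sensor that restrains the phosphate response and is itself induced by phosphate shortage, had 6.81, 6.5 and 7.18 FPKM in cesium roots and 6.84, 6.83 and 5.99 FPKM in low potassium roots, against 34.4, 32.0 and 42.6 FPKM in control roots (log2 change -2.27 ± 0.09, adjusted p = 3.28e-06). Its 6 treated values lay within a narrow band far below all control values, and the difference of cesium minus low potassium had a 95% interval of -0.19 to 0.3. PAP17, an acid phosphatase, had 6.84, 6.56 and 9.61 FPKM in cesium roots and 16.8, 21.1 and 14.9 FPKM in low potassium roots, against 26.0, 28.5 and 31.9 FPKM in control roots (log2 change -1.24 ± 0.14, adjusted p = 0.000222). It fell further in cesium roots than in low potassium roots (difference -1.10 ± 0.16, adjusted p = 0.000774). The files give PAP17 a region that it shares with a neighbour, so its values are less certain.

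The other separated members act in uptake, in transport to the shoot, in recycling of phosphate and in the exchange of phospholipids for other lipids. PHO1, which loads phosphate into the xylem, had 76.9, 87.3 and 79.2 FPKM in cesium roots and 85.3, 72.3 and 73.1 FPKM in low potassium roots, against 123, 129 and 137 FPKM in control roots. PHT1;2, a phosphate transporter of the plasma membrane, had 2.37, 1.71 and 0.530 FPKM in cesium roots and 3.23, 2.35 and 3.03 FPKM in low potassium roots, against 3.48, 4.39 and 7.61 FPKM in control roots. Its highest treated value, in low potassium replicate 1, lay just under its lowest control value. RNS1, a secreted ribonuclease that frees phosphate from RNA, had 6.21, 7.38 and 11 FPKM in cesium roots and 14.5, 18.8 and 12.2 FPKM in low potassium roots, against 25.2, 32.5 and 23.2 FPKM in control roots. In both treatments every value lay below the control values. PPSPASE1, a pyrophosphatase, had 6, 8.62 and 9.03 FPKM in cesium roots and 10.2, 9.39 and 7.37 FPKM in low potassium roots, against 16.3, 16.5 and 14.4 FPKM in control roots. The lipid genes SQD2 and MGD2, which make sulfolipid and galactolipid, had log2 changes of -0.84 ± 0.14 and -0.47 ± 0.12, SRG3, a phosphodiesterase of glycerol lipids, had -0.6 ± 0.07, and PHF1, which brings PHT1 proteins to the membrane, had -0.51 ± 0.08. SPX2, a relative of SPX1, had -0.36 ± 0.08. These genes all passed the test, as did PHO1;H1 (-0.40 ± 0.09), which was not separated. PHT1;1 (-0.35 ± 0.21), PHT1;4 (-0.33 ± 0.17), SQD1 (-0.25 ± 0.09) and PLDZ2 (-0.13 ± 0.14) did not pass. PHT1;2 had an adjusted p of 0.0558 with control replicate 2 left out and of 0.102 with control replicate 3 left out, and MGD2 had 0.0651 and 0.0566 with control replicates 1 and 2 left out in turn. When the treated libraries were fitted as one group, PHT1;2 (0.0830), MGD2 (0.0786), SQD2 (0.0853) and PHO1;H1 (0.143) did not pass.

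PHR1, the master regulator of this response, is known to bind a motif named P1BS, GNATATNC, which is its own reverse complement and so reads alike on both strands. In windows from 250 bases before to 50 bases after the gene start, P1BS was found in 6 of the 12 separated phosphate genes (50.0%), against 6.20% of all 19333 windows, 5.87% of those of separated higher genes and 7.28% of those of separated lower genes. The list was made of genes known for this response, so its share describes the list and not an effect of the treatments. The share among list members that were not separated was not counted. It lies 42 bases before the start of PHT1;2, 217 before that of PPSPASE1, 127 and 63 before that of SRG3, 14 before and 38 after that of MGD2, 23 after that of SPX1 and 20 after that of RNS1. These sequences are shown because they hold a match and belong to genes that fell in both treatments. They are RefSeq sequence of TAIR10.1, written 5′ to 3′ on the strand of the gene, with the match in capitals. A match is a description of the letters and does not show a site in use. The first 3 are the 250 bases before the gene start, and the last 2 are 30 bases around the match.
SRG3 (chr3:350011-350260, minus strand): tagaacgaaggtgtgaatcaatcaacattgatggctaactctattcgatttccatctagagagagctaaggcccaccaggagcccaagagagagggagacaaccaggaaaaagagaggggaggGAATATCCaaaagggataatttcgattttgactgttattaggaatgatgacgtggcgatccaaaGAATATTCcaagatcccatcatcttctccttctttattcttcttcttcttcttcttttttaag
PPSPASE1 (chr1:27466349-27466598, minus strand): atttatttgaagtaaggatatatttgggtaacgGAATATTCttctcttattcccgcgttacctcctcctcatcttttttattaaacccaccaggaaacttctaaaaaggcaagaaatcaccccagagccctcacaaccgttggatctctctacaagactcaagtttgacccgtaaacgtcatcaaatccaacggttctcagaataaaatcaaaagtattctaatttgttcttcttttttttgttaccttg
PHT1;2 (chr5:17415448-17415697, plus strand): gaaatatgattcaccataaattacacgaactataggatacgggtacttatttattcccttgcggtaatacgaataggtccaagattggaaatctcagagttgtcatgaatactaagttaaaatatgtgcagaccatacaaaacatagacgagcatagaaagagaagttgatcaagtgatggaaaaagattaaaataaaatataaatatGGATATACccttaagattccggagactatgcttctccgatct
SPX1 (chr5:6802293-6802322, plus strand): cagagaaaaaaGGATATTCtaattagaaac
RNS1 (chr2:873514-873543, plus strand): caaaaggtacaGTATATACcataaatctcc
The same letters also stand in the windows of UPI and CYP735A2, which were higher in both treatments. For IPS1, these letters are not in its window.

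The 12 genes that rose by the most in both treatments include a glycine-rich protein gene, enzymes of cytokinin and squalene metabolism and 4 genes encoded in the organelles. They were ranked by the smaller of the changes in cesium and in low potassium roots. AT2G05510, of a glycine-rich protein family, was the most abundant, with 3917, 1804 and 1563 FPKM in cesium roots and 3156, 5274 and 3727 FPKM in low potassium roots, against 195, 168 and 183 FPKM in control roots (log2 change 4.02 ± 0.27, adjusted p = 2.58e-05). No treated library came near the control libraries. ATL8, a RING-type protein of a ubiquitin ligase family, had 119, 55.5 and 41.9 FPKM in cesium roots and 46.3, 53.1 and 37.2 FPKM in low potassium roots, against 5.97, 5.76 and 3.32 FPKM in control roots (log2 change 3.23 ± 0.29, adjusted p = 8.47e-05). UPI, an inhibitor of serine proteases, had 221, 146 and 135 FPKM in cesium roots and 211, 227 and 233 FPKM in low potassium roots, against 24.8, 24.5 and 24.5 FPKM in control roots (log2 change 2.91 ± 0.14, adjusted p = 4.10e-06). It rose further in low potassium roots than in cesium roots (difference of cesium minus low potassium -0.45 ± 0.16, adjusted p = 0.0493). On TAIR10, in the regions the files give, AT2G05510 lies on chromosome 2, 2015624 to 2016772, ATL8 on chromosome 1, 28668664 to 28669652 and UPI on chromosome 5, 17507801 to 17508752.

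CYP735A2, the hydroxylase that makes the trans-zeatin type of cytokinin in roots, had 105, 59.3 and 47.7 FPKM in cesium roots and 38.9, 40.4 and 30.6 FPKM in low potassium roots, against 6.26, 9.01 and 5.44 FPKM in control roots (log2 change 2.70 ± 0.23, adjusted p = 6.14e-05). Every treated value lay far above the 3 control values, and cesium roots were higher than low potassium roots in every library. SQE6, a squalene monooxygenase of the sterol and triterpene pathway, had 6.11, 7.10 and 5.15 FPKM in cesium roots and 18, 17.5 and 17.9 FPKM in low potassium roots, against 0.769, 0.477 and 0.803 FPKM in control roots (log2 change 2.78 ± 0.11, adjusted p = 3.28e-06). SQE6 was separated in both treatments and was higher in low potassium than in cesium roots in every library. AT5G13370, of the GH3 family, many of whose members join amino acids to plant hormones, had 17.8, 14.1 and 13.5 FPKM in cesium roots and 17.4, 20.2 and 20.9 FPKM in low potassium roots, against 1.79, 2.94 and 2.08 FPKM in control roots. AT3G21352, whose product the reference does not describe, had 36.2, 19.8 and 21.4 FPKM in cesium roots and 46.1, 43.5 and 61.5 FPKM in low potassium roots, against 3.03, 3.44 and 5.06 FPKM in control roots. AT3G05770, which shares its region in the files with a neighbour, had 41.2, 20.8 and 20.4 FPKM in cesium roots and 13, 14.4 and 11.2 FPKM in low potassium roots, against 1.12, 1.19 and 1.61 FPKM in control roots. The remaining genes of this set, ATMG00160, ATMG00640, ATMG00690 and ATCG00630, are taken up with the organelles.

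**Figure D2:**
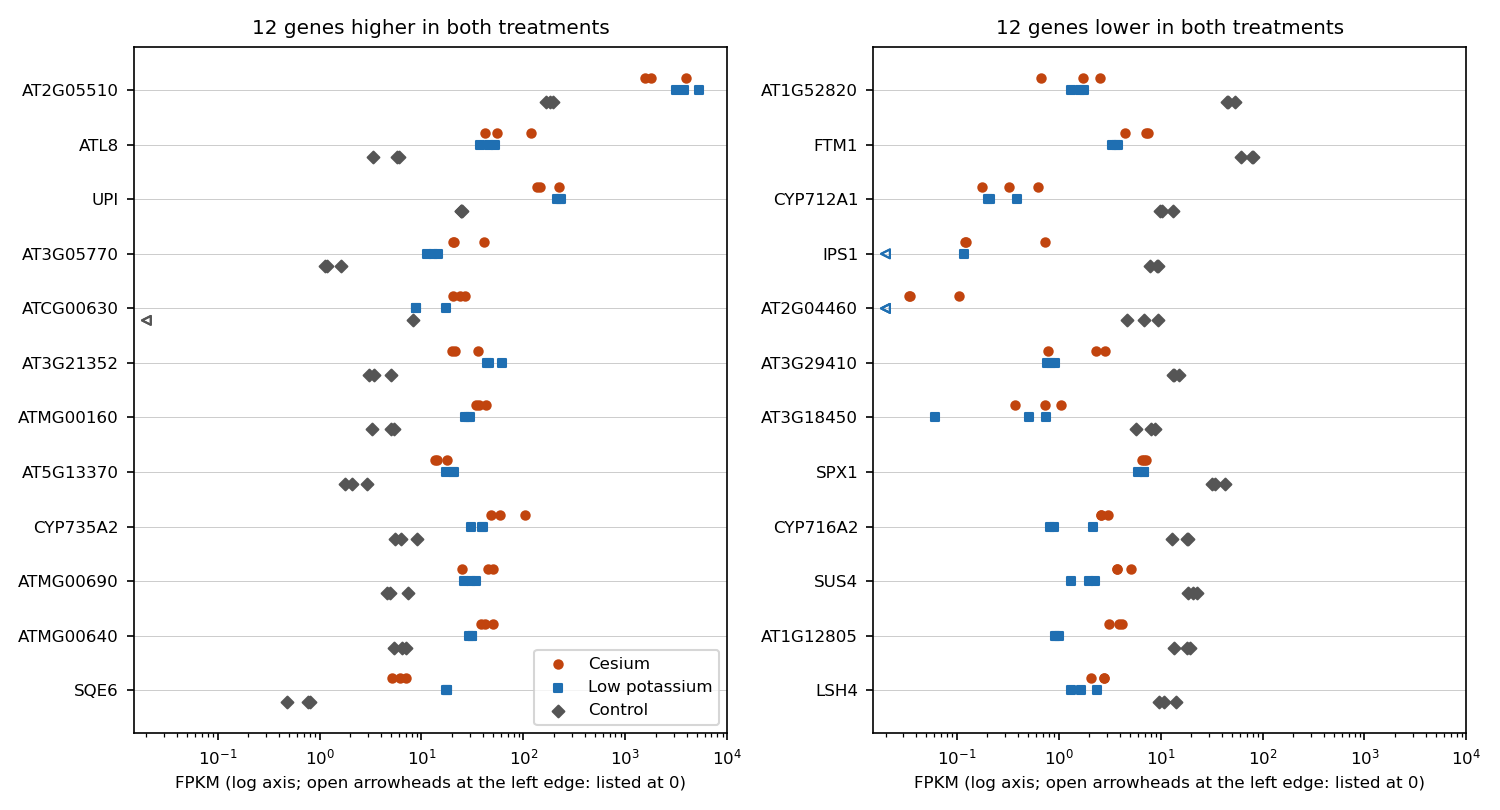
FPKM in each library (log axis) of the 12 genes that rose and the 12 that fell by the most in both treatments, with circles for cesium, squares for low potassium and diamonds for control, and open arrowheads for values listed at 0. In all 24 genes the 6 treated points lie on 1 side of the 3 control points, as the choice of the genes requires.

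The 12 genes that fell by the most include IPS1 and SPX1, genes of oxygenase, desaturase, P450 and terpene cyclase families, a sucrose synthase and a gene of a transposable element. AT1G52820, of the family of 2-oxoglutarate-dependent oxygenases, had 0.668, 1.75 and 2.54 FPKM in cesium roots and 1.62, 1.34 and 1.79 FPKM in low potassium roots, against 53.7, 45.8 and 45.1 FPKM in control roots (log2 change -4.26 ± 0.2, adjusted p = 4.10e-06). Its region in the files spans a neighbour, so part of this signal may belong to that gene. The difference of cesium minus low potassium had a 95% interval of -0.54 to 0.49. FTM1, of the stearoyl-ACP desaturase family, had 4.43, 7.57 and 7.16 FPKM in cesium roots and 3.83, 3.63 and 3.31 FPKM in low potassium roots, against 78.4, 79.8 and 61.2 FPKM in control roots (log2 change -3.68 ± 0.15, adjusted p = 3.28e-06), and lay lower in low potassium than in cesium roots (difference 0.66 ± 0.17, adjusted p = 0.015). SUS4, a sucrose synthase known as induced by low oxygen, had 3.76, 5.10 and 3.73 FPKM in cesium roots and 2.28, 1.97 and 1.33 FPKM in low potassium roots, against 20.8, 22.6 and 18.6 FPKM in control roots (log2 change -2.5 ± 0.13, adjusted p = 5.97e-06). LSH4, a regulator known from organ boundaries, had 2.81, 2.79 and 2.09 FPKM in cesium roots and 1.64, 2.36 and 1.32 FPKM in low potassium roots, against 10.8, 9.70 and 14.1 FPKM in control roots. In none of these genes did a treated value come near the control values.

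AT3G29410, of the terpene cyclase family, had 0.782, 2.33 and 2.83 FPKM in cesium roots and 0.774, 0.926 and 0.840 FPKM in low potassium roots, against 13.1, 13.4 and 15 FPKM in control roots (log2 change -2.70 ± 0.21, adjusted p = 3.87e-05). CYP716A2, of a P450 family that oxidizes triterpenes, had 2.59, 2.58 and 3.05 FPKM in cesium roots and 2.16, 0.904 and 0.815 FPKM in low potassium roots, against 12.9, 18.5 and 18.1 FPKM in control roots (log2 change -2.59 ± 0.18, adjusted p = 3.10e-05). Beside it on chromosome 5 lie AT5G36130 and PEN3, a triterpene synthase, which were chosen after their values were seen and had log2 changes of -2.35 ± 0.15 and -1.82 ± 0.14. AT2G04460, annotated as a transposable element gene, had 0.0343, 0.105 and 0.0348 FPKM in cesium roots and was listed at 0 in all low potassium libraries, against 6.91, 4.64 and 9.43 FPKM in control roots. CYP712A1, a P450 whose region in the files is shared, was under 1 FPKM in all treated libraries, against 13.2, 10.3 and 9.87 FPKM in control roots. AT1G12805, annotated as nucleotide binding, and AT3G18450, of the PLAC8 family, had log2 changes of -2.55 ± 0.12 and -2.44 ± 0.2.

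Genes of root hairs, the tubular cells that enlarge the uptake surface, were lower in both treatments. Of 18 tested root hair genes 14 fell and none rose, the same number were separated, and the median log2 change was -1.10. RHD6, the regulator that starts hair formation, had 12.7, 14.9 and 10.2 FPKM in cesium roots and 11.2, 10.5 and 9.36 FPKM in low potassium roots, against 19.0, 18.4 and 19.3 FPKM in control roots (log2 change -0.68 ± 0.11, adjusted p = 0.00142). RSL2, a regulator of hair growth that acts after it, had 2.60, 4.86 and 1.56 FPKM in cesium roots and 4.22, 3.74 and 1.88 FPKM in low potassium roots, against 9.48, 13.1 and 13.6 FPKM in control roots (log2 change -1.71 ± 0.27, adjusted p = 0.00140). RHD2, the oxidase that makes reactive oxygen at the hair tip, had 6.5, 8.46 and 6.93 FPKM in cesium roots and 10.9, 9.30 and 6.76 FPKM in low potassium roots, against 12.5, 17.8 and 17.7 FPKM in control roots (log2 change -0.90 ± 0.16, adjusted p = 0.00262). None of the 18 passed the test of cesium against low potassium. The summed FPKM of the list was 279 to 447 in cesium libraries and 185 to 533 in low potassium libraries, against 621 to 979 in control libraries, with low potassium replicate 3 and cesium replicate 3 the lowest of their groups. Its other separated members act in hair growth and wall building. RSL4, a regulator of hair length, had 4.59, 6.70 and 4.40 FPKM in cesium roots and 6.76, 7.35 and 3.59 FPKM in low potassium roots, against 8.64, 12.2 and 10.3 FPKM in control roots. EXPA7, an expansin that loosens the hair wall, had 23.1, 28.3 and 17.4 FPKM in cesium roots and 29.0, 27.8 and 8.64 FPKM in low potassium roots, against 38.1, 48.5 and 54.1 FPKM in control roots. Both groups of treated libraries lay below all control libraries. LRX1 (-1.15 ± 0.35), a wall protein, CSLD3 (-0.34 ± 0.09), which makes wall polysaccharide at the tip, and COW1 (-1.27 ± 0.24), a lipid transfer protein of tip growth, fell as well. RSL1 (-0.35 ± 0.13), PRP1 (-0.85 ± 0.38), PRP3 (-1.03 ± 0.38) and ROPGEF3 (-0.26 ± 0.14) did not pass. Calls on this list rest in part on single control libraries, since 6 members passed without control replicate 2 and 7 without control replicate 3. EXPA7, LRX1 and CSLD3 did not pass with either of these libraries left out (adjusted p of 0.0975, 0.0946 and 0.0754 without control replicate 2). RSL4 did not pass without control replicate 2 (0.0690), EXPA7 did not pass without control replicate 1 (0.0567), and LRX1 did not pass without cesium replicate 1 (0.0607).

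Genes of the endodermal barriers were also lower. In the Casparian strip list 8 of 10 tested genes fell, none rose and 7 were separated (median log2 change -0.91), and in the suberin list 11 of 14 fell, 1 rose and 11 were separated, all lower (median -0.77). CASP4, a membrane protein that marks the site of the strip, had 11.6, 15.2 and 15.9 FPKM in cesium roots and 14.7, 12.6 and 12.2 FPKM in low potassium roots, against 39.1, 32.9 and 41.0 FPKM in control roots (log2 change -1.40 ± 0.11, adjusted p = 5.09e-05). CASP2 had 45.8, 45.1 and 59.6 FPKM in cesium roots and 58.3, 54.7 and 51.9 FPKM in low potassium roots, against 129.6, 116 and 132 FPKM in control roots (log2 change -1.25 ± 0.1, adjusted p = 4.28e-05). ESB1, a dirigent protein needed for the lignin of the strip, had 80.5, 89.1 and 83.2 FPKM in cesium roots and 107, 100.4 and 94.8 FPKM in low potassium roots, against 163, 155 and 184 FPKM in control roots (log2 change -0.85 ± 0.08, adjusted p = 8.23e-05), with a region shared with a neighbour. MYB36, the regulator that switches these genes on, had a log2 change of -0.32 ± 0.12 and did not pass. CASP5 (-0.49 ± 0.18) did not pass either, and its values in low potassium roots lay above those in control roots, while those in cesium roots lay below.

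Suberin genes were lower in cesium than in low potassium roots. Of the 14 tested members 12 passed the test of cesium against low potassium, against 34.2% of all tested genes, and the median log2 change against control was -1.17 in cesium roots and -0.53 in low potassium roots. GPAT5, an acyltransferase that makes suberin monomers, had 11, 9.63 and 10.1 FPKM in cesium roots and 19.2, 19.6 and 15.7 FPKM in low potassium roots, against 26.2, 28.6 and 32.6 FPKM in control roots (log2 change -1.03 ± 0.09, adjusted p = 8.77e-05), with a difference of cesium minus low potassium of -0.77 ± 0.11, adjusted p = 0.000774. ABCG6, an exporter of suberin building blocks, had 17.8, 17.7 and 18.5 FPKM in cesium roots and 38.9, 39.96 and 26.0 FPKM in low potassium roots, against 57.5, 58.9 and 66.0 FPKM in control roots (log2 change -1.25 ± 0.12, adjusted p = 0.000133). ASFT, which joins ferulate to these building blocks, had 38.3, 34.5 and 38.5 FPKM in cesium roots and 65.0, 63.0 and 47.0 FPKM in low potassium roots, against 95.2, 107 and 116 FPKM in control roots (log2 change -1.18 ± 0.11, adjusted p = 9.90e-05), with a shared region. In all 3 genes cesium roots were lowest, low potassium roots lay between and control roots were highest, without overlap. FAR1, a reductase that makes suberin alcohols, was the member that rose (log2 change 0.82 ± 0.17, adjusted p = 0.00609), was not separated, and lost its call when the treated libraries were fitted as one group, which left 0 members higher.

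**Figure D3:**
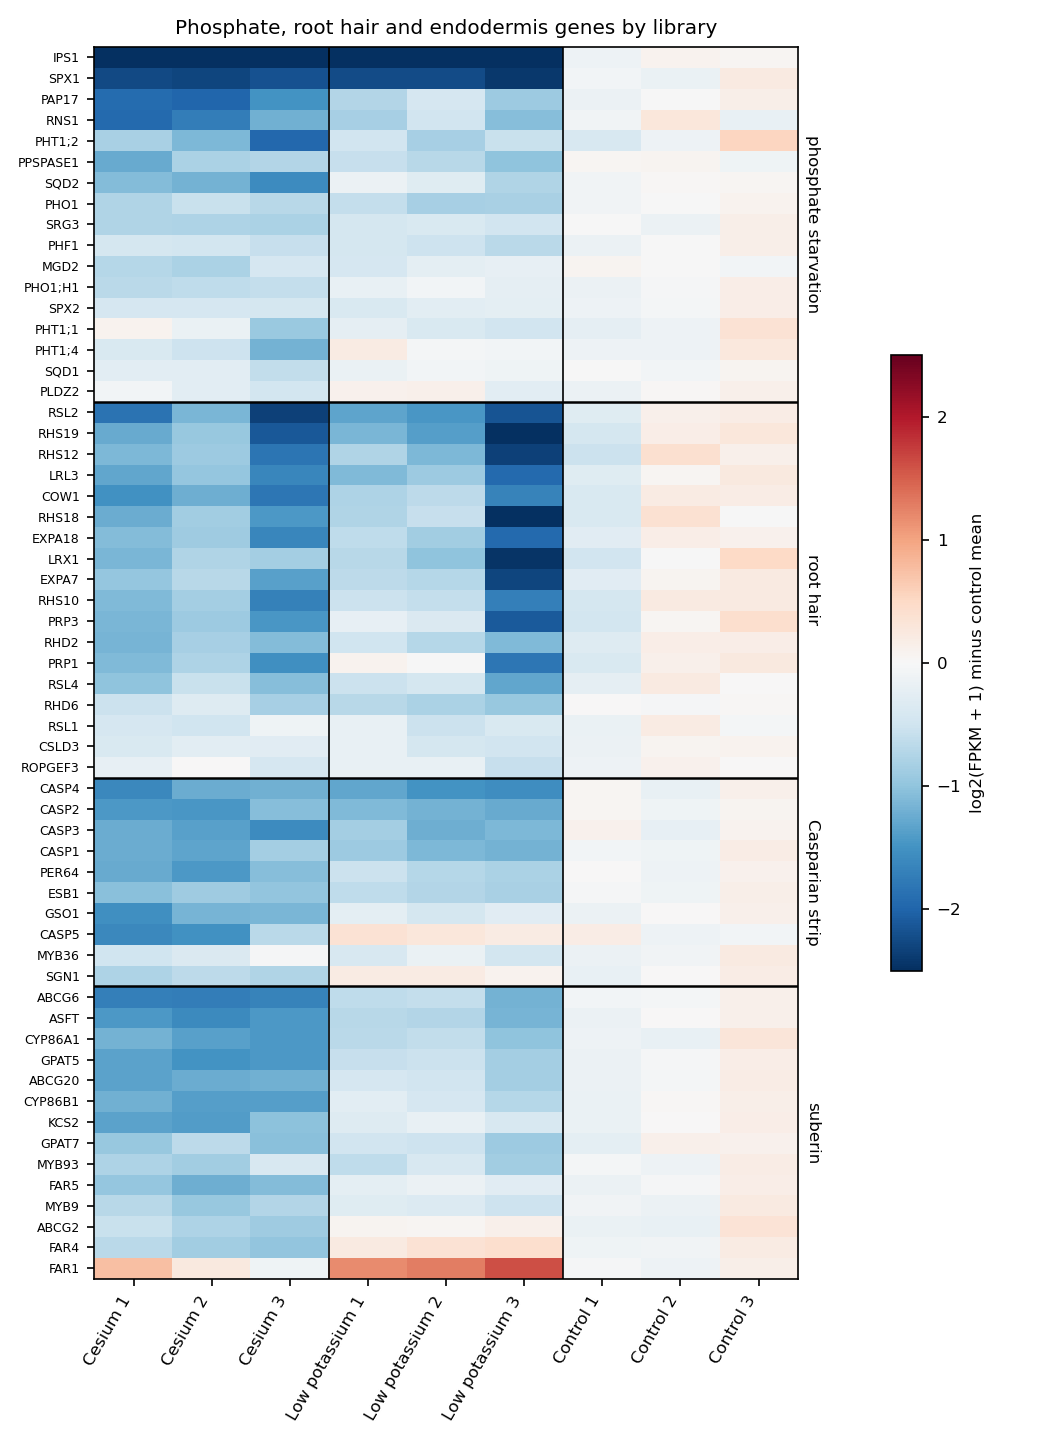
Each row is a tested gene of the phosphate starvation, root hair, Casparian strip or suberin list, each column a library, and the color is log2(FPKM + 1) minus the mean of the 3 control libraries, from blue (lower) to red (higher). Most cells of the treated libraries are blue, FAR1 is red in 5 of 6 treated libraries, and root hair genes are darkest in low potassium replicate 3 and cesium replicate 3.

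Markers of other root tissues did not move in 1 direction with these lists. None of 14 tested xylem wall genes passed in either direction or was separated. Their summed FPKM was 143 to 345 in cesium and 143 to 318 in low potassium libraries, against 257 to 322 in control libraries. Both values of 143 were those of replicate 3, and the other treated libraries had 277 to 345. Among 6 phloem genes 2 rose, APL and SUC2, and none was separated. Among 14 genes of the list for dividing cells 5 fell (CDKB2;1, KNOLLE, AUR1, AUR2 and MCM5), 1 rose, and none was separated. The gene that rose, WOX5, is a regulator of the root stem cell niche. The median log2 change of this list was 0.04 in cesium roots and -0.39 in low potassium roots. Of the 14, 11 passed the test of cesium against low potassium, against 34.2% of all tested genes. Calls on both lists were lost in part without single libraries, with 0 phloem genes and 0 genes of dividing cells lower without control replicate 1. All 35 tested photosynthesis genes passed the test of cesium against low potassium, and none was separated, since their summed FPKM was 2178 to 3833 in cesium and 836 to 995 in low potassium libraries, against 1280 to 1723 in control libraries. ATML1, a marker of shoot epidermis chosen after its values were seen, had 2.60, 3.01 and 2.52 FPKM in cesium roots and 1.44, 0.786 and 0.962 FPKM in low potassium roots, against 1.85, 2.29 and 1.62 FPKM in control roots. The part of these tissues in the other results was not tested.

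**Figure D4:**
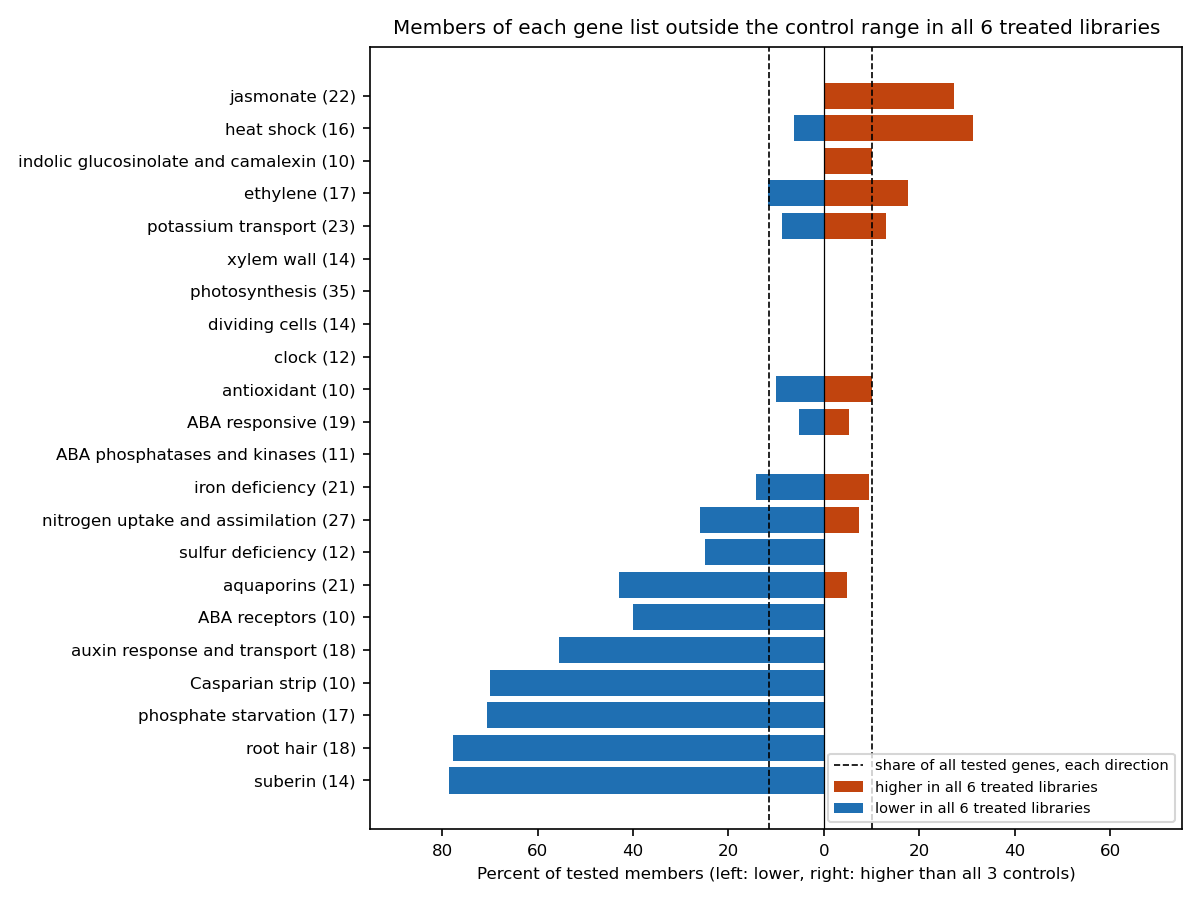
Percent of the tested members of each gene list with at least 10 tested members (number in brackets) that lay above all 3 controls in all 6 treated libraries (red, to the right) or below them (blue, to the left), with dashed lines at 10.0% and 11.6%, the shares over all tested genes. Suberin, root hair, phosphate starvation and Casparian strip genes reach furthest to the left, and heat shock and jasmonate genes furthest to the right.

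Aquaporins, channels for water and small solutes, were mostly lower. Of 21 tested aquaporins 11 fell and 2 rose, 9 were separated lower and 1 higher, and the median log2 change was -0.41. TIP2;1, of the vacuolar membrane, had 133, 168 and 214 FPKM in cesium roots and 200.1, 180.4 and 174 FPKM in low potassium roots, against 500.4, 481 and 483 FPKM in control roots (log2 change -1.46 ± 0.13, adjusted p = 7.36e-05), with a shared region. TIP4;1 had 70.2, 75.1 and 60.7 FPKM in cesium roots and 92.1, 81.1 and 61.9 FPKM in low potassium roots, against 134, 137 and 142 FPKM in control roots (log2 change -0.91 ± 0.12, adjusted p = 0.000554). PIP2;4, of the plasma membrane, had 20.4, 23.1 and 29.0 FPKM in cesium roots and 49.7, 44.4 and 35.1 FPKM in low potassium roots, against 63.2, 70.8 and 59.9 FPKM in control roots (log2 change -0.99 ± 0.13, adjusted p = 0.000570), and was lower in cesium than in low potassium roots in every library. The separated member that was higher, PIP2;5, had 57.6, 37.0 and 28.4 FPKM in cesium roots and 23.5, 27.5 and 17.9 FPKM in low potassium roots, against 16.4, 14.5 and 15.9 FPKM in control roots (log2 change 0.89 ± 0.2, adjusted p = 0.00827). NIP5;1, a boron channel that also passed, had 49.0, 46.3 and 53.8 FPKM in cesium roots and 96.9, 98.7 and 107 FPKM in low potassium roots, against 47.1, 46.7 and 52.0 FPKM in control roots, so that its cesium values overlapped control. Neither of these 2 passed when the treated libraries were fitted as one group.

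Auxin response and transport genes fell while most type-A regulators of cytokinin signalling rose. Of 18 tested auxin genes 13 fell and 1 rose, 10 were separated, all lower, and the median log2 change was -0.42. IAA19, an auxin-induced repressor of auxin signalling, had 2.75, 4.15 and 4.14 FPKM in cesium roots and 3.33, 3.16 and 2.86 FPKM in low potassium roots, against 10.7, 12.1 and 10.03 FPKM in control roots (log2 change -1.45 ± 0.12, adjusted p = 5.13e-05). IAA14, which restrains lateral root formation, had 7.56, 8.78 and 4.68 FPKM in cesium roots and 5.03, 5.67 and 4.50 FPKM in low potassium roots, against 13.7, 18.3 and 16.5 FPKM in control roots (log2 change -1.31 ± 0.16, adjusted p = 0.000428), and IAA17 had a log2 change of -0.8 ± 0.13, adjusted p = 0.00144. The auxin carriers PIN3 (-0.40 ± 0.09), PIN4 (-0.35 ± 0.1), PIN7 (-0.54 ± 0.11) and AUX1 (-0.40 ± 0.08) fell and were separated. The member that rose was LBD16 (0.3 ± 0.09), a regulator of lateral root founder cells, which did not pass without control replicate 1 or 3. PIN3 did not pass without control replicate 3 (adjusted p = 0.0571), and PIN4 did not pass without control replicate 2 (0.0816), control replicate 3 (0.124) or cesium replicate 1 (0.0520). Of the 13, 8 passed without control replicate 2, 8 without control replicate 3 and 6 when the treated libraries were fitted as one group.

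Type-A response regulators are induced by cytokinin and dampen its signal. Of 8 tested members 6 rose and 1 fell, 5 were separated higher and 1 lower, and the median log2 change was 0.54. ARR5 had 23.6, 18.4 and 24.8 FPKM in cesium roots and 24.3, 28.1 and 28.3 FPKM in low potassium roots, against 11.2, 12.6 and 10.4 FPKM in control roots (log2 change 1.04 ± 0.11, adjusted p = 0.000144). ARR6 had 43.1, 30.5 and 40.5 FPKM in cesium roots and 51.1, 65.3 and 63.9 FPKM in low potassium roots, against 26.4, 27.1 and 24 FPKM in control roots (log2 change 0.85 ± 0.12, adjusted p = 0.000813), with a shared region, and it was higher in low potassium than in cesium roots in every library. ARR16 (1.17 ± 0.29), ARR4 (0.52 ± 0.11) and ARR9 (0.31 ± 0.07) rose and were separated, and ARR7 (0.56 ± 0.18) rose without being separated. ARR16 did not pass without control replicate 1 (adjusted p = 0.0609), ARR9 without control replicate 2 (0.0585) or control replicate 3 (0.0547), and ARR4 when the treated libraries were fitted as one group (0.0572). ARR7 did not pass in that model (0.0694), without any 1 control library (0.0648 to 0.156), or without low potassium replicate 2 or 3 or cesium replicate 1. ARR3 was the exception, with 14.2, 13.8 and 19.2 FPKM in cesium roots and 21.9, 23.8 and 22.2 FPKM in low potassium roots, against 33.3, 32.0 and 30.1 FPKM in control roots (log2 change -0.73 ± 0.1, adjusted p = 0.000743).

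Nitrogen genes moved in both directions, with NRT2 nitrate transporters among the lower genes and the regulators BT2 and LBD39 among the higher ones. Of 27 tested genes of nitrogen uptake and assimilation 8 fell and 5 rose, 7 were separated lower and 2 higher, and the median log2 change was -0.25. NRT2.4, a high-affinity nitrate transporter, had 4.30, 6.05 and 4.83 FPKM in cesium roots and 0.613, 0.354 and 0.226 FPKM in low potassium roots, against 16.3, 15.8 and 21.5 FPKM in control roots (log2 change -2.69 ± 0.14, adjusted p = 5.14e-06), with a difference of cesium minus low potassium of 2.11 ± 0.16, adjusted p = 2.72e-05. NRT2.2, a transporter with a near-identical copy in NRT2.1 beside it, had 17.1, 26.1 and 9.58 FPKM in cesium roots and 1.41, 0.682 and 0.624 FPKM in low potassium roots, against 39.7, 46.5 and 77.2 FPKM in control roots (log2 change -3.23 ± 0.29, adjusted p = 8.61e-05). Both genes lay lowest in low potassium roots, with no overlap between any of the 3 groups. NIA1 (-0.98 ± 0.22) and NIR1 (-0.78 ± 0.14), the nitrate and nitrite reductases, and GLN2 (-0.35 ± 0.09), a glutamine synthetase, fell and were separated. NRT3.1 (-0.48 ± 0.21), the partner protein of NRT2 transporters, and AMT1;3 (-0.55 ± 0.23), an ammonium transporter, were separated lower without passing. BT2, a nitrate-responsive scaffold protein, had 30.8, 20.9 and 23.9 FPKM in cesium roots and 28.3, 31.2 and 26.1 FPKM in low potassium roots, against 12.7, 13.7 and 12.4 FPKM in control roots (log2 change 0.99 ± 0.11, adjusted p = 0.000272), and LBD39 (0.47 ± 0.11), a repressor of nitrate genes, rose with it. The nitrate transporters NRT1.1 (0.44 ± 0.16) and NRT1.8 (-0.45 ± 0.23, with a shared region) and the other nitrate reductase, NIA2 (0.12 ± 0.2), did not pass, and NRT1.1 and NIA2 passed as higher without cesium replicate 3 (adjusted p of 0.00290 and 0.00793). With control replicate 2 or 3 left out, GLN2 did not pass (adjusted p of 0.0562 and 0.0546). When the treated libraries were fitted as one group 2 members rose and 4 fell, and NRT2.2 had an adjusted p of 0.0508.

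The sulfur and iron lists held separated genes in shares near the 21.6% over all tested genes. Of 12 tested sulfur deficiency genes 5 fell and 1 rose, and 3 were separated, all lower (median log2 change -0.32, or -0.19 without control replicate 3). SDI1, which restrains glucosinolate synthesis when sulfur is short, had 5.14, 3.73 and 3.76 FPKM in cesium roots and 6.83, 5.51 and 5.36 FPKM in low potassium roots, against 12.9, 14 and 24.7 FPKM in control roots (log2 change -1.55 ± 0.19, adjusted p = 0.000369). SULTR1;1, a sulfate transporter, had a log2 change of -1.13 ± 0.19, adjusted p = 0.00207. LSU2, a protein induced by low sulfur, had -0.74 ± 0.17, adjusted p = 0.0109, and with control replicate 3 left out LSU2 did not pass (adjusted p = 0.0546) and 3 members fell. Of 21 tested iron deficiency genes 6 fell and 4 rose, 3 were separated lower and 2 higher, and the median was -0.01. FIT, the regulator of iron uptake, had 21.2, 21.6 and 19.3 FPKM in cesium roots and 14, 13.2 and 13.2 FPKM in low potassium roots, against 26.5, 31.1 and 33.1 FPKM in control roots (log2 change -0.81 ± 0.08, adjusted p = 0.000126). NRAMP1, a transporter of manganese and iron with a shared region, had 53.6, 45.8 and 39.9 FPKM in cesium roots and 104, 98.6 and 113 FPKM in low potassium roots, against 28.9, 28.6 and 27.8 FPKM in control roots (log2 change 1.26 ± 0.09, adjusted p = 3.14e-05). IMA1, a small peptide of iron signalling, had a log2 change of 1.09 ± 0.15, adjusted p = 0.000633 and lost its call when the treated libraries were fitted as one group (adjusted p = 0.112). With cesium replicate 3 left out 7 members of the iron list rose. The other separated members, BHLH38 (-0.98 ± 0.14) and NAS4 (-0.69 ± 0.14), fell.

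Some jasmonate genes were higher. Of 22 tested members 9 rose, none fell and 13 did not pass, 6 were separated, all higher, and the median log2 change was 0.34. The median against control was 0.62 in cesium roots and 0.10 in low potassium roots, and 15 of the 22 passed the test of cesium against low potassium. JAZ7, one of the repressors that jasmonate itself induces, had 7.77, 5.27 and 6.59 FPKM in cesium roots and 5.12, 6.02 and 6.24 FPKM in low potassium roots, against 2.79, 2.3 and 2.71 FPKM in control roots (log2 change 0.99 ± 0.12, adjusted p = 0.000335). JAZ5 had 6.15, 6.05 and 6.23 FPKM in cesium roots and 3.17, 4.21 and 2.85 FPKM in low potassium roots, against 2.67, 1.77 and 1.78 FPKM in control roots (log2 change 0.88 ± 0.13, adjusted p = 0.00100). JAZ6 had 25.6, 22.5 and 22.0 FPKM in cesium roots and 13.1, 12.1 and 13.1 FPKM in low potassium roots, against 10.8, 9.16 and 9.32 FPKM in control roots (log2 change 0.77 ± 0.08, adjusted p = 0.000159) and was higher in cesium than in low potassium roots (difference 0.82 ± 0.09, adjusted p = 0.000203). MYC2 (0.47 ± 0.11), the leading transcription factor of the pathway, AOS (0.56 ± 0.1), an enzyme of jasmonate synthesis, and VSP1 (0.61 ± 0.17), a storage protein gene induced by jasmonate, rose and were separated. MYC2 did not pass without control replicate 3 (adjusted p = 0.0603), and VSP1 did not pass when any 1 of the control libraries or low potassium replicate 2 was left out. When the treated libraries were fitted as one group 3 members passed, and JAZ6 had an adjusted p of 0.0670.

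Some small heat shock protein genes were higher. Of 16 tested genes of the heat shock list, which also holds larger chaperones and regulators, 8 rose and 1 fell, 5 were separated higher and 1 lower, and the median log2 change was 0.39. HSP17.4, a small chaperone with a shared region, had 20.3, 18.9 and 15.6 FPKM in cesium roots and 16.3, 25.8 and 15.8 FPKM in low potassium roots, against 4.91, 5.41 and 5.62 FPKM in control roots (log2 change 1.63 ± 0.15, adjusted p = 8.77e-05). HSP17.6C had 8.03, 6.62 and 5.01 FPKM in cesium roots and 11.1, 10.1 and 7.55 FPKM in low potassium roots, against 2.37, 2.42 and 3.22 FPKM in control roots (log2 change 1.27 ± 0.15, adjusted p = 0.000364), and HSP17.6A had a log2 change of 1.72 ± 0.25, adjusted p = 0.000928. HSP23.5 (0.91 ± 0.18), of mitochondria, and HSP17.8 (0.61 ± 0.15) rose and were separated. ROF2, a chaperone-binding immunophilin, fell, with 9.34, 11.4 and 8.30 FPKM in cesium roots and 11.3, 11.5 and 10.9 FPKM in low potassium roots, against 18.5, 21.9 and 17.0 FPKM in control roots (log2 change -0.82 ± 0.11, adjusted p = 0.000526). HSP18.2 (1.17 ± 0.22) and HSP22 (1.10 ± 0.22) passed without being separated, and lost their call when the treated libraries were fitted as one group (adjusted p of 0.434 and 0.253). With control replicate 2 or 3 left out, HSP17.8 did not pass (adjusted p of 0.0687 and 0.0658). The small heat shock protein genes HSP15.7 (-0.19 ± 0.2), HSP17.6II (0.2 ± 0.15) and HSP26.5 (-0.32 ± 0.18) did not pass. HSFA2 (-0.12 ± 0.15), a heat regulator, and HSP101 (0.11 ± 0.12), a large chaperone, did not pass either. GOLS4, a galactinol synthase with a shared region, had 44.3, 37.9 and 22.8 FPKM in cesium roots and 35.3, 55.2 and 35.5 FPKM in low potassium roots, against 7.64, 11.2 and 10.8 FPKM in control roots (log2 change 1.83 ± 0.22, adjusted p = 0.000358), while its relative GOLS3 had a log2 change of -1.2 ± 0.15, adjusted p = 0.000495.

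Receptors of the stress hormone abscisic acid were lower in part. Of 10 tested receptor genes 5 fell and none rose, 4 were separated, all lower, and the median log2 change was -0.21. PYL6 had 11.9, 10.4 and 7.89 FPKM in cesium roots and 1.41, 1.65 and 1.52 FPKM in low potassium roots, against 13.8, 16 and 16.2 FPKM in control roots (log2 change -1.63 ± 0.12, adjusted p = 3.10e-05). PYL2 had 15.5, 14.2 and 12.4 FPKM in cesium roots and 4.29, 4.1 and 4.23 FPKM in low potassium roots, against 23.4, 16.8 and 17.1 FPKM in control roots (log2 change -1.17 ± 0.11, adjusted p = 0.000105). Both lay far lower in low potassium than in cesium roots, with differences of 2.11 ± 0.13, adjusted p = 1.06e-05 for PYL6 and 1.52 ± 0.13, adjusted p = 4.44e-05 for PYL2, and both lost their call when the treated libraries were fitted as one group (adjusted p of 0.105 and 0.112). PYL9 (-0.31 ± 0.08) and PYL1 (-0.33 ± 0.09) fell by little and were separated. Of the 5 receptors, 3 passed without control replicate 1 and 2 without control replicate 3. Among 11 phosphatases and kinases of the pathway none passed against control in limma or was separated, and single alternatives called 1. Of these 11, 9 passed the test of cesium against low potassium. Among 19 abscisic acid responsive genes 5 rose and 7 fell, and only ABF2 (-0.66 ± 0.09), a transcription factor, and P5CS1 (0.44 ± 0.07), an enzyme of proline synthesis, were separated. These 19 genes had a median log2 change of -0.56 in cesium roots and 0.33 in low potassium roots. Of them, 16 passed the test of cesium against low potassium, against 34.2% of all tested genes. With the treated libraries fitted as one group 0 of the 19 responsive genes rose and 1 fell. The series title names perception of this hormone and thiamine genes, so these lists are not independent evidence.

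Smaller lists gave single genes. Of 17 ethylene genes 4 rose and 2 fell, and 3 were separated higher and 2 lower. ACO1, an enzyme that makes ethylene, had a log2 change of -0.94 ± 0.09, adjusted p = 0.000111, and EBF1, which removes the pathway's transcription factor, had 0.6 ± 0.1, adjusted p = 0.00162. CTR1, a kinase that holds the pathway back, had 0.21 ± 0.06, adjusted p = 0.0375, and did not pass when any 1 of 7 libraries was left out, all 3 control libraries among them. The number of ethylene genes that rose was 1 without control replicate 2, 2 without control replicate 1 or 3, and 7 without cesium replicate 3. CYP81F2, of indolic glucosinolate metabolism, had 7.59, 5.86 and 4.75 FPKM in cesium roots and 20.6, 13.9 and 16.3 FPKM in low potassium roots, against 3.78, 4.44 and 2.86 FPKM in control roots and was the only separated gene of 10 in its list, of which 3 rose and none fell. WRKY53, of the defence list (4 tested, 1 higher and 1 lower), had a log2 change of -0.81 ± 0.16, adjusted p = 0.00425, with a shared region. In the list of 10 antioxidant genes 2 rose and none fell, and none rose without control replicate 2 or 3. Its separated members, CSD1 (0.19 ± 0.09, adjusted p = 0.155) and APX1 (-0.27 ± 0.11, adjusted p = 0.0810), did not pass. Of 12 clock genes 5 rose and 1 fell, none was separated, and 1 rose without control replicate 1.

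Potassium transport genes were separated in a share near the 21.6% over all tested genes. Of 23 tested members 7 rose and 3 fell, against 14.3% and 14.8% of all tested genes. Of the members, 3 were separated higher and 2 lower, and the median log2 change was 0.08. HAK5, the high-affinity potassium transporter that marks potassium shortage, had 2.24, 4.88 and 2.83 FPKM in cesium roots and 142, 156 and 157 FPKM in low potassium roots, against 3.68, 4.33 and 4.58 FPKM in control roots. Its cesium values overlapped control, and its call for both treatments (log2 change 2.28 ± 0.16, adjusted p = 2.98e-05) was lost when the treated libraries were fitted as one group (adjusted p = 0.341). AKT1, the potassium channel of root hairs and cortex, with a shared region, had 63.1, 59.99 and 45.1 FPKM in cesium roots and 99.6, 102 and 103 FPKM in low potassium roots, against 53.8, 57.6 and 56.8 FPKM in control roots, and cesium replicate 3 lay below all controls. KUP10, KUP6 and CIPK23 were the separated members that were higher. KUP10 had 13.6, 11.9 and 11.7 FPKM in cesium roots and 32.9, 33.5 and 36.3 FPKM in low potassium roots, against 9.82, 11.4 and 11.5 FPKM in control roots (log2 change 0.87 ± 0.08, adjusted p = 8.23e-05). KUP6 had 41.8, 42.3 and 36.9 FPKM in cesium roots and 54.2, 48.7 and 52.5 FPKM in low potassium roots, against 28.4, 31.1 and 32.0 FPKM in control roots (log2 change 0.57 ± 0.07, adjusted p = 0.000504), and CIPK23 had 74.4, 74.8 and 65.8 FPKM in cesium roots and 102, 103 and 108 FPKM in low potassium roots, against 61.0, 63.3 and 56.7 FPKM in control roots (log2 change 0.51 ± 0.07, adjusted p = 0.000641). In each of these 3 genes the low potassium values lay above all cesium values. KUP10 and CIPK23 lost their call when the treated libraries were fitted as one group (adjusted p of 0.185 and 0.0738), which left 1 member higher and 0 lower. Without control replicate 1, 4 members rose, and 0 fell without control replicate 2 and 1 without control replicate 3. The separated members that were lower, SKOR (-0.46 ± 0.11), which releases potassium to the xylem, and KUP5 (-0.29 ± 0.09), a potassium transporter, fell by little, and neither passed without control replicate 2 (adjusted p of 0.0693 and 0.0982).

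Of 6 tested regulators of the response to low potassium 1 rose and 3 fell, and 1 was separated higher and 2 lower. RAP2.11, a transcription factor that activates HAK5, had 17.2, 20.4 and 13.6 FPKM in cesium roots and 22.8, 23.4 and 7.69 FPKM in low potassium roots, against 35.5, 50.5 and 56.5 FPKM in control roots (log2 change -1.44 ± 0.31, adjusted p = 0.00741), with a shared region. RCI3, a peroxidase that makes reactive oxygen under low potassium, had 207, 216 and 277 FPKM in cesium roots and 173, 145 and 169.9 FPKM in low potassium roots, against 290.4, 288 and 334 FPKM in control roots (log2 change -0.64 ± 0.11, adjusted p = 0.00230). BHLH121, of the same list, had a log2 change of 0.27 ± 0.07, which did not pass when control replicate 3 was left out (adjusted p = 0.0808).

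Vitamin genes gave small shared changes. Of 7 tested thiamine genes 2 rose, TH1 (0.26 ± 0.07) and TPK2 (0.5 ± 0.14), both with shared regions, and neither passed without control replicate 2 or without control replicate 3. THIC, the enzyme for the pyrimidine ring of thiamine, shares its region and had 15.8, 13.2 and 9.55 FPKM in cesium roots and 3.02, 3.10 and 3.26 FPKM in low potassium roots, against 4.97, 5.32 and 8.47 FPKM in control roots (log2 change 0.08 ± 0.17, adjusted p = 0.760), so that its cesium values lay above and its low potassium values below all control values. THI1, which makes the thiazole part, had 77.4, 89.1 and 48.0 FPKM in cesium roots and 21.2, 20.1 and 14.8 FPKM in low potassium roots, against 41.3, 40.4 and 58.7 FPKM in control roots (log2 change -0.35 ± 0.2, adjusted p = 0.222). Of 5 vitamin B6 genes PDX2 (0.31 ± 0.08) and PDX1.1 (0.52 ± 0.15) rose, and PDX1.2 (-0.27 ± 0.07), with a shared region, fell. All 3 lost their call without single libraries, among them control replicate 1 for PDX1.1 (log2 change 0.34, adjusted p = 0.120) and for PDX1.2 (0.0738), and control replicate 2 for PDX2 (0.0543).

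Some separated genes moved the same way in both treatments but by very different amounts. HIS1-3, a linker histone induced by drought, had 33.1, 23.9 and 25.7 FPKM in cesium roots and 200.5, 281 and 243 FPKM in low potassium roots, against 23.7, 18.9 and 20.9 FPKM in control roots (difference of cesium minus low potassium -3.09 ± 0.15, adjusted p = 4.26e-06). AT5G50760, of the SAUR family of auxin-responsive genes, had 13.1, 13.6 and 12.7 FPKM in cesium roots and 62.1, 61.1 and 62.5 FPKM in low potassium roots, against 9.83, 8.83 and 12.5 FPKM in control roots (difference -2.15 ± 0.11, adjusted p = 4.26e-06). MLO6, a membrane protein linked to powdery mildew susceptibility, had 7.27, 6.17 and 5.57 FPKM in cesium roots and 29.9, 29.9 and 27.3 FPKM in low potassium roots, against 3.69, 4.51 and 4.24 FPKM in control roots (difference -2.04 ± 0.11, adjusted p = 4.26e-06). In all 3 the cesium values lay just above the control values and the low potassium values several times higher. Among lower genes AT4G33720, of the family of pathogenesis-related protein PR-1, had 5.10, 11.5 and 8.51 FPKM in cesium roots and 0.128, 0 and 0.0619 FPKM in low potassium roots, against 15.6, 18.7 and 16.9 FPKM in control roots (difference 3.08 ± 0.22, adjusted p = 1.87e-05). LTP5, a lipid transfer protein, had 71.2, 58.9 and 62.8 FPKM in cesium roots and 15.1, 10.3 and 10.9 FPKM in low potassium roots, against 129.6, 94.6 and 91.0 FPKM in control roots (difference 2.33 ± 0.16, adjusted p = 1.87e-05). Both were lowest in low potassium roots, with cesium values between those and control. None of these 5 passed against control when the treated libraries were fitted as one group, with adjusted p of 0.185, 0.165 and 0.113 for HIS1-3, AT5G50760 and MLO6 and of 0.0881 and 0.0987 for AT4G33720 and LTP5.

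Genes encoded in the mitochondrion and the chloroplast were higher in treated roots. Of 29 tested mitochondrial genes 24 were separated, all higher, 26 rose and none fell, with a median log2 change of 1.3. Of 39 tested chloroplast genes 20 were separated, all higher, 22 rose and none fell, with a median of 0.94. ATMG00160, the cytochrome oxidase subunit COX2, had 43.2, 37.0 and 34.2 FPKM in cesium roots and 30.2, 28.3 and 27.0 FPKM in low potassium roots, against 5.01, 3.24 and 5.39 FPKM in control roots (log2 change 2.63 ± 0.13, adjusted p = 4.31e-06). ATMG00640, annotated as an ATP synthase part, had 50.1, 42.0 and 38.0 FPKM in cesium roots and 29.0, 31.1 and 31.4 FPKM in low potassium roots, against 7.08, 6.39 and 5.32 FPKM in control roots (log2 change 2.37 ± 0.1, adjusted p = 3.28e-06), and ATMG00690, with no described product, had a log2 change of 2.43 ± 0.21, adjusted p = 7.35e-05. ATCG00630, the photosystem I subunit PSAJ, had 20.3, 26.6 and 23.7 FPKM in cesium roots and 8.83, 8.90 and 17.4 FPKM in low potassium roots, and in control roots it was listed at 0 in 2 libraries and had 8.17 FPKM in the other.

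These transcripts were a minute share of the libraries. Mitochondrial genes made up 0.0518% to 0.0582% of the summed FPKM in cesium libraries and 0.0346% to 0.0421% in low potassium libraries, against 0.0129% to 0.0184% in control libraries. Chloroplast genes made up 0.184% to 0.469% in cesium libraries and 0.140% to 0.193% in low potassium libraries, against 0.0803% to 0.125% in control libraries, with cesium replicate 3 the highest. The mitochondrial groups do not overlap, and neither do the treated and control chloroplast shares. Without cesium replicate 3, 24 mitochondrial and 20 chloroplast genes were separated. The IDs of these genes had no match in the RefSeq table used, so whether their regions in the files hold neighbours was not compared. When the treated libraries were fitted as one group 23 mitochondrial and 10 chloroplast genes rose. Of the chloroplast genes 14 rose without control replicate 2 and 13 without control replicate 3. Near-identical copies of mitochondrial genes on chromosome 2, such as AT2G07698, with 9.33, 8.47 and 6.61 FPKM in cesium roots and 7.54, 6.62 and 8.41 FPKM in low potassium roots, against 2.11, 1.55 and 1.53 FPKM in control roots, were higher too, and the files do not show which copy the reads came from.

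**Figure D5:**
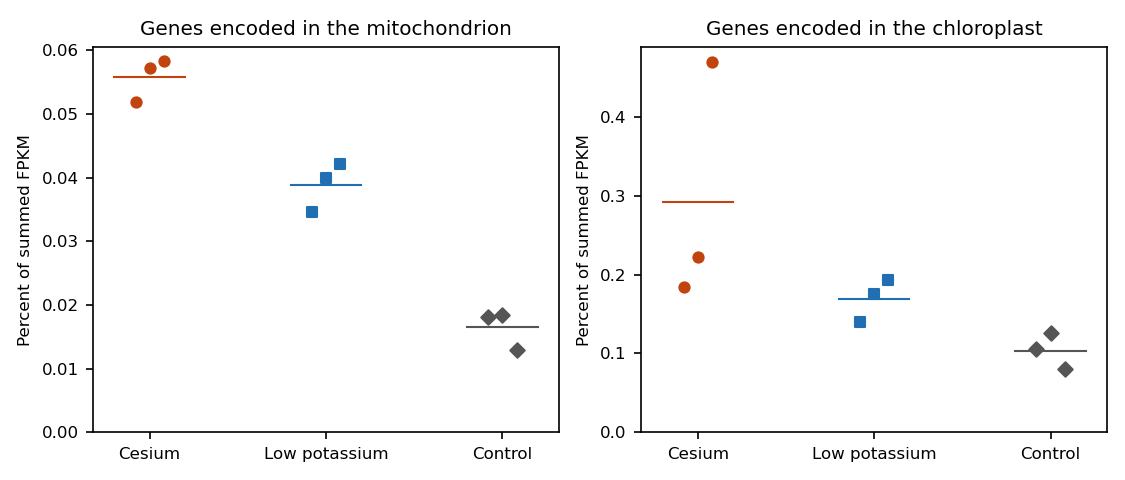
Percent of the summed FPKM of each library that falls on all genes encoded in the mitochondrion (left) and in the chloroplast (right), tested or not, with 1 point per library and a line at the mean of 3 libraries. Cesium libraries lie highest and control libraries lowest for the mitochondrion, and cesium replicate 3 stands apart at 0.469% for the chloroplast.

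Nuclear genes that RefSeq annotates as noncoding or as pseudogenes were separated mainly as higher. Of 570 such tested genes 86 were separated higher (15.1%) and 11 lower (1.93%), against 1804 (9.61%) and 2243 (11.95%) of 18766 nuclear protein-coding genes. Among them, 230 long noncoding RNAs had 41 separated higher (17.83%) and 1 lower (0.435%). In the 315 of the 570 genes with a region of their own the counts were 48 higher (15.2%) and 11 lower (3.49%). The 570 genes had a lower median level, 3.70 FPKM against 13.8 FPKM of protein-coding genes. A further 132 tested nuclear genes are not in the RefSeq table and their type is not known here, and of them 19 were separated higher (14.4%) and 5 lower (3.79%). The extraction and the library type were the same in all groups per the labels, and the part of RNA quality or rRNA removal was not tested.

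Some protein families, chosen after their values were seen, were separated mainly in 1 direction. Dirigent proteins, which guide the coupling of lignin and lignan precursors, were lower in 11 of 17 tested genes and higher in 0. Pectin lyase-like proteins were lower in 18 of 49 and higher in 0, and peroxidases, many of which act in the cell wall, lower in 17 of 54 and higher in 4. Genes of the cysteine- and histidine-rich C1 domain were lower in 27 of 84 and higher in 3, and those of the NPH3 family lower in 9 of 22 and higher in 0. In the other direction, MATE transporters, which export metabolites and ions, were higher in 9 of 35 and lower in 4, HSP20-like chaperones higher in 7 of 28 and lower in 0, and glycine-rich proteins higher in 6 of 23 and lower in 0. These shares stand beside 10.0% higher and 11.6% lower over all tested genes.

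Some separated genes also lay close together. Runs were sought among tested nuclear genes with a region of their own, and tested genes with shared regions were skipped. There were 11 runs of at least 4 such genes in a row separated in the same direction, 45 genes in all. Other tested genes can therefore lie within a run. A run of 4 genes of the berberine bridge enzyme family on chromosome 1, 9126737 to 9143336 of TAIR10, was higher, with AT1G26380 at 9.59, 8.02 and 4.25 FPKM in cesium roots and 28.3, 22.7 and 27.4 FPKM in low potassium roots, against 1.98, 2.62 and 2.62 FPKM in control roots (log2 change 2.11 ± 0.2, adjusted p = 8.96e-05) and AT1G26410 at a log2 change of 2.02 ± 0.14, adjusted p = 2.58e-05. Both rose further in low potassium than in cesium roots. A run on chromosome 2, 1966610 to 2016772, holds AT2G05510 with the glycine-rich protein genes GRP3S and GRP9, higher by 2.63 and 2.06 in cesium roots and by 0.80 and 2.17 in low potassium roots on the log2 scale. A run of 4 lower genes on chromosome 3, 19053272 to 19066734, AT3G51330 to AT3G51360, includes AT3G51350, with log2 changes of -1.47 in cesium roots and -2.16 in low potassium roots. Neighbours of like sequence can share reads, so members of such runs are less certain as single genes.

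Short motifs other than P1BS were counted in the same windows, with values for higher genes first, then lower genes, then all. The GCC box, GCCGCC, which ethylene response factors bind, was in 3.70% of windows of higher genes and 0.932% of those of lower genes, against 2.68% of all. The G-box, CACGTG, was in 8.57% of windows of higher genes and 8.30% of those of lower genes, against 8.71% of all, and it holds the ABRE core, ACGTG, which was in 28.5% and 29.8%, against 27.9%. The evening element, AAAATATCT, was in 3.02% and 2.44%, against 2.90%. The W-box letters TTGACC were in 15.4% and 13.6%, against 14.5%, and TTGACT in 21.7% and 23.2%, against 22.0%. TATAAA was in 52.4% and 54.9%, against 51.8%. All were searched on both strands in the windows of 300 bases, and a match is a description only.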

How the data were processed

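RNA from roots of 9 wild-type Col-0 samples was extracted with Trizol and sequenced as strand-specific libraries, per the labels' protocols, which do not say whether counting used strand. FPKM values per gene were computed by the authors and deposited as 1 file per library. Cufflinks 2.2.1, STAR 2.5.0c and Bowtie2 2.3.4.1 are listed, with TAIR10, in the submitters' processing notes, which do not give their order of use. Tables deposited by the authors also hold log2 fold changes and q-values for each treatment against control, per the file headers. None of these deposited values is given here.

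Each file held 37547 genes. Values not marked OK (6, in 5 genes) were dropped with their genes, and the 19536 genes whose mean reached 1 FPKM were tested. IDs of 37040 genes matched the RefSeq table of TAIR10.1, and 27464 genes (13567 of those tested) had a region in the files equal to that of 1 gene, so that genes with wider regions are less certain. Besides those marked in the text, BHLH38, CASP5, CSD1, EXPA7, HRE1, HSP101, KUP5, MYC2, P5CS1, PLDZ2, ROPGEF3, SKOR, SRG3 and SRO5 have such regions. FPKM values plus 1 were put on the log2 scale here and fitted with limma 3.58.1 (R 4.3.3) as 3 groups with an intensity trend. The main contrast was the mean of both treatments minus control, and the other was cesium minus low potassium, each with Benjamini-Hochberg adjustment over all tested genes and a threshold of 0.05. Sequences were read from TAIR10.1 with Python 3.11.15 and pandas 2.3.3, and figures were drawn with matplotlib 3.10.9. On simulated data of 19536 genes with 200 changed, the treated against control test recovered 84% of the changes of 1 and 100% of those of 2 on the log2 scale, and called 10 unchanged genes.

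The members and the 29 lists (446 genes, 411 tested) were chosen with earlier results of these data known. Named genes are the 12 per direction with the largest smaller change among separated genes that passed and reached a mean of 5 FPKM in treated or control roots, up to 3 separated members per list with the smallest adjusted p, THIC, THI1, HAK5 and AKT1, and the 3 separated genes per direction with the smallest adjusted p between treatments. Other list members are given to account for their list, and any further gene was chosen after its values were seen. Alternatives were pseudocounts of 0.1 and 0.5, no filter or a filter of 5 FPKM, median-ratio scaling, quantile normalization, no trend, a replicate block, a model of treated libraries as one group, genes with a region of their own, each library left out and, chosen after seeing the data, genes above 0 in all 9 libraries. Read totals are unknown, so no counting interval is given.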

Additional observations from a re-analysis of the deposited data

Results flagged for a closer look

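Among the 92 genes named by the rule, 43 had a difference between cesium and low potassium roots that passed its own test. Of all tested genes 34.2% passed it. HIS1-3, AT5G50760, MLO6, PYL6, AT4G33720 and LTP5 were named for their small p in this same test, so the choice fixed that they passed. Values here are cesium minus low potassium on the log2(FPKM + 1) scale, from limma. Among separated genes higher in treated roots, cesium was above low potassium in AT3G05770 (0.97), CYP735A2 (0.86), ATMG00640 (0.49), JAZ6 (0.82) and JAZ5 (0.71). Cesium was below low potassium in UPI (-0.45), AT3G21352 (-0.97), SQE6 (-1.41), HIS1-3 (-3.09), AT5G50760 (-2.15), MLO6 (-2.04), KUP10 (-1.40), KUP6 (-0.35), CIPK23 (-0.54), BHLH121 (-0.23), P5CS1 (-0.43), NRAMP1 (-1.17), IMA1 (-1.37), ARR6 (-0.65) and CYP81F2 (-1.34).

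Among separated genes lower in treated roots, cesium was above low potassium in FTM1 (0.66), CYP716A2 (0.75), SUS4 (0.87), AT1G12805 (1.27), PYL6 (2.11), PYL2 (1.52), AT4G33720 (3.08), LTP5 (2.33), RCI3 (0.51), NRT2.4 (2.11), NRT2.2 (3.21), FIT (0.58) and ACO1 (0.34). Cesium was below low potassium in PAP17 (-1.10), ARR3 (-0.52), GPAT5 (-0.77), ASFT (-0.63), ABCG6 (-0.90) and PIP2;4 (-0.81). Of the genes named whatever their values, THIC (1.72) and THI1 (1.85) were higher in cesium roots, and HAK5 (-5.19) and AKT1 (-0.86) were lower.

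Single treated libraries stood far from the other 5 in 4 of the 24 genes with the largest changes. These were ATL8 at 119 FPKM and AT3G05770 at 41.2 FPKM, both in cesium replicate 1, and IPS1 at 0.730 FPKM and AT2G04460 at 0.105 FPKM, both in cesium replicate 2. Chance marks about 1 in 20 such groups. The 6 treated libraries hold 2 treatments, so a gap can also lie between these.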

How the results depend on the processing

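Counts of separated genes and of genes past each test stayed within 1.5 times their value in 103 of 106 alternative values. The exceptions all concern treated against control: 1035 genes rose and 1478 fell when the treated libraries were fitted as one group, whose spread then includes the difference between treatments, and 1712 rose without control replicate 2, for which the cause was not tested. With single libraries left out, 1712 to 3356 genes rose and 1949 to 3328 fell, both highest without cesium replicate 3, and separated genes numbered 2062 to 2626 higher and 2342 to 2776 lower. Of the 88 genes named by the rule and past the test, 22 did not pass with treated libraries as one group and 10 without at least 1 library. THIC, which did not pass, turned to -0.0453 without control replicate 1 and -0.00405 without control replicate 2, with a highest value of 0.29 without control replicate 3 (log2). Correlations of same-numbered deviations ran between -0.12 and 0.28, and the highest was between low potassium replicate 3 and cesium replicate 3. These libraries also had the lowest summed FPKM of root hair, xylem wall and phloem genes in their groups. The labels do not say whether same-numbered samples were handled together, and the cause of this likeness was not tested. With a replicate block, 2495 genes rose and 2635 fell against control, 2964 and 3131 differed between treatments, and of the genes named by the rule CTR1 lost its call (adjusted p = 0.0611). Of the other list members given in the report, LRX1 (0.0539), ARR7 (0.0589), WOX5 (0.0577), APL (0.0587), AUR2 (0.0641) and MCM5 (0.0726) lost theirs with the block, and NRT1.1 (0.0444) passed. Low FPKM values limit the precision of genes near 1 FPKM.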

Other observations

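Flavonoid genes, a list chosen after values were seen, lay lower in both treatments. Of 9 tested members 8 were separated, all lower, against 11.6% of all tested genes, and the median log2 change was -1.4. FLS1, which makes flavonols, had 21.1, 23.5 and 36.3 FPKM in cesium roots and 22.4, 19.9 and 17.7 FPKM in low potassium roots, against 55.0, 52.8 and 202 FPKM in control roots. TT4, the chalcone synthase that opens the pathway, shares its region and had 321, 286 and 341 FPKM in cesium roots and 353, 273 and 236 FPKM in low potassium roots, against 676, 549.9 and 1315 FPKM in control roots. MYB12, the regulator of flavonol synthesis in roots, had 7.33, 7.36 and 9.46 FPKM in cesium roots and 8.11, 7.59 and 5.56 FPKM in low potassium roots, against 13.6, 13.7 and 18.8 FPKM in control roots. No treated value reached a control value in these 3 genes, and control replicate 3 stood far above the other control libraries in FLS1 and TT4. Without control replicate 3 the median was -0.89 and 8 members still passed, but the log2 changes of FLS1 (-1.20, against -1.83 with it), TT5 (-0.89, against -1.59), TT7 (-0.91, against -1.56) and UGT78D2 (-0.39, against -0.74) shrank by over 1.5 times. UGT78D1 (-0.18) did not pass and stood at 0.25 without that library.

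Genes of the low oxygen response, also chosen after their values were seen, were lower in part. Of 13 tested members 7 were separated, all lower, and the median log2 change was -0.76. Besides FTM1 and SUS4, ADH1, the alcohol dehydrogenase of fermentation, shares its region and had 22.7, 15.6 and 11.7 FPKM in cesium roots and 20.7, 28.0 and 20.02 FPKM in low potassium roots, against 52.1, 65.7 and 54.8 FPKM in control roots. PCO2, an oxygen-sensing enzyme, had 3.24, 3.68 and 3.48 FPKM in cesium roots and 1.78, 2.79 and 1.87 FPKM in low potassium roots, against 10.04, 10.9 and 8.92 FPKM in control roots. HB1 (-0.8), a hemoglobin, PCO1 (-0.96) and SUS1 (-0.58) were separated too, while LBD41 (-0.14), HRE1 (-0.27), HRE2 (-0.09), HRA1 (0.08) and SRO5 (0.2) did not pass.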
